A study of Mus musculus with 6 samples.

Results

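The enzymes that rebuild nicotinamide adenine dinucleotide (NAD) from its breakdown products, the enzymes that clear nicotinamide, and a pair of NAD-using sirtuins were followed in mouse liver with and without the kinase LKB1. The genes were picked by symbol from the deposited count table: Nampt, Nmnat1, Nmnat3, Naprt, Nadsyn1, Nmrk1, Nnmt, Aox3, Sirt1 and Sirt3. These are 10 of 55450 genes in the table, and all 10 passed the filter on low counts that left 14539 genes for testing.

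Liver RNA was sequenced from 6 mice of the strain labelled C57BL/J, with 1 library per mouse. The knockout (KO) group held 3 LKB1 fl/fl mice, whose LKB1 gene (symbol Stk11) is flanked by loxP sites, and the wild-type (WT) group held 3 mice whose genotype is labelled normal. Mice of both groups received AAV8 Cre, an adeno-associated virus that carries the Cre recombinase, at 6 weeks of age, and the left liver lobe was taken 4 weeks later, at 10 weeks. The promoter that drives Cre is not given in the sources used here, so the cells that recombined cannot be named from the labels.

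NAD is both an electron carrier and a substrate that sirtuins and poly(ADP-ribose) polymerases consume, and each such reaction releases nicotinamide. Nicotinamide is returned to NAD through nicotinamide mononucleotide, nicotinic acid enters through a separate branch, and the liver can also build NAD from tryptophan. Nicotinamide that is methylated leaves this cycle, and its methylated form is oxidised to pyridones and excreted. Whether loss of LKB1 moved the transcripts of these steps is the question put to the comparison of KO with WT.

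Libraries held 47659122 to 56147667 counts. Stk11 had 22.1, 14.4 and 11.4 CPM (counts scaled to library size) in KO 1 to 3 and 66.1, 64.2 and 69.7 CPM in WT 1 to 3, so every KO library lay below every WT library (log2 fold change -2.06 ± 0.247 (SE), adjusted p = 0.0167). Library 1 of each group had 29243 or more counts of Xist and at most 6 counts of 4 Y-linked genes, whereas the other 4 libraries had at most 16 counts of Xist and at least 6146 Y-linked counts. The labels do not give sex. Results below are therefore also given for the other 4 libraries (the Y-linked set) and for KO 1 and WT 1 (the Xist pair), which is 1 library against 1 and has no error. Among all 14539 genes, 490 passed an adjusted p of 0.05 in edgeR's quasi-likelihood test, which is 3.37%, with 313 higher (2.15%) and 177 lower (1.22%). Scaling by library size alone gave 380 higher and 131 lower.

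Of the 10 genes 2 passed that threshold, and both were higher in KO: Nnmt, 26.7-fold by the group means, and Nadsyn1, 2.02-fold. The KO and WT libraries did not overlap for 6 of the 10 genes, 4 higher and 2 lower, where 32.4% of all genes did not overlap (16.9% higher and 15.5% lower). The median log2 fold change of the 10 was 0.14, beside 0.01 for all genes tested. In the Y-linked set 6 of the 10 passed, 4 higher (Nampt, Nmnat1, Nadsyn1 and Nnmt) and 2 lower (Nmrk1 and Aox3), but there 33.3% of all genes passed. At an unadjusted p under 0.05 there were 5 of the 10, beside 26.3% of all genes. In bulk tissue, fewer cells that express a gene and less RNA per cell cannot be told apart.

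The count of genes that passed moved with the fit, for the 10 genes and for all genes alike. DESeq2 passed 5 of the 10 (15.8% of all genes), limma voom passed 1 (2.97%), scaling by library size alone 2 (3.51%), the fit without a filter on low counts 3 (3.25%) and the fit with Xist state as a covariate 3 (10.3%). Leaving out KO 1 passed 6 of the 10 (30.2% of all genes). Leaving out KO 2, KO 3, WT 1 or WT 3 passed Nnmt alone (0.578%, 0.233%, 1.75% and 0.133% of all genes), and leaving out WT 2 passed 0 (0.0401%).

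**Figure D1:**
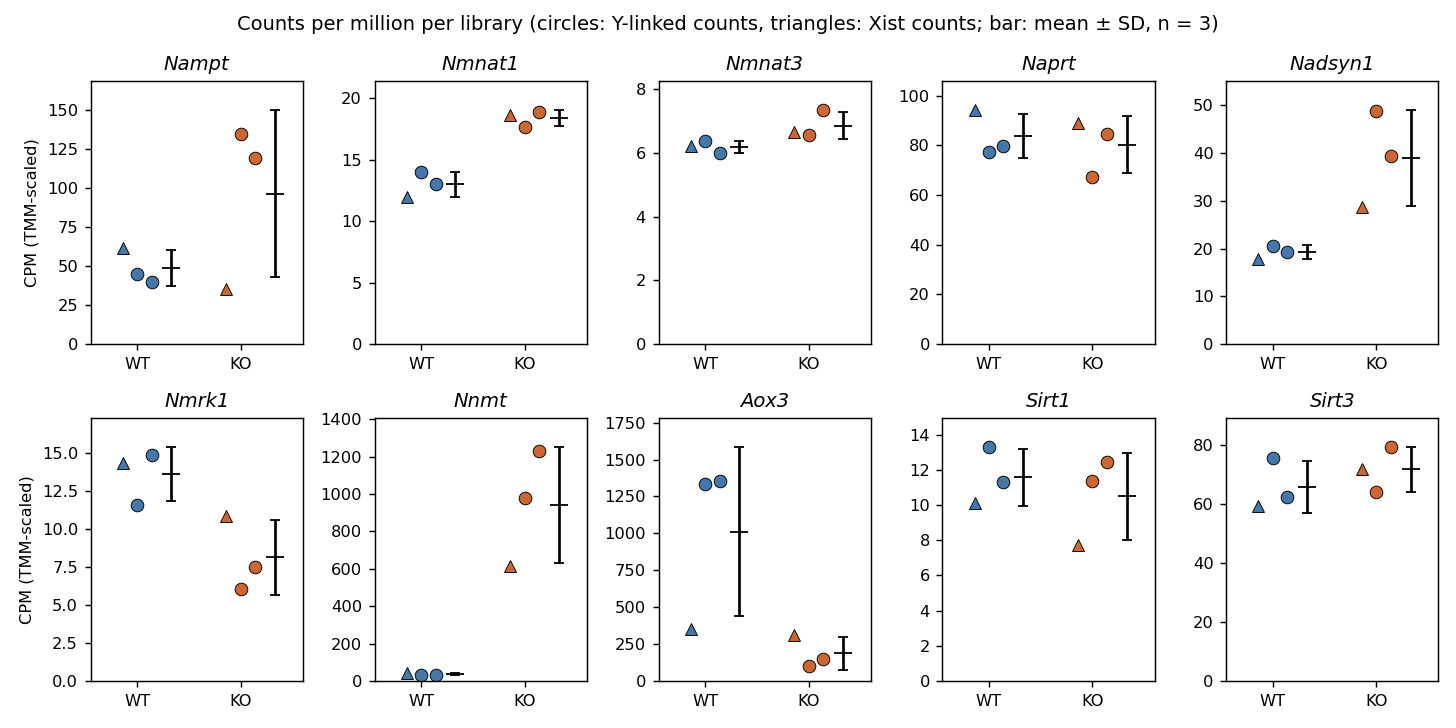
CPM of each gene in each library, on linear axes that start at 0. Blue marks WT and orange KO, triangles are the libraries with Xist counts, circles those with Y-linked counts, and the bar is the mean ± SD (n = 3). The KO libraries of Nnmt, at 617 to 1232 CPM, sit far above the WT libraries, and Nampt and Aox3 of KO 1 sit apart from the other KO libraries.

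RefSeq promoter windows (build GRCm38.p6) were found for 8 of the 10 genes, and none was found under the symbols Naprt and Nnmt in the set of windows used here. The windows below are the 250 bases before the start of Nadsyn1, which passed the threshold over all libraries, of Nampt, whose difference depended on the libraries, and of Sirt1, whose level overlapped between groups and whose window alone among the 8 genes holds the clock motif searched. Capitals mark the E-box CACGTG, bound by clock factors, and TGACG, the half-site of the cAMP response element, with both strands searched. The positions are chr7:143822853-143823102 on the minus strand for Nadsyn1, chr12:32820085-32820334 on the plus strand for Nampt and chr10:63339036-63339285 on the minus strand for Sirt1. The Nampt and Sirt1 windows lie inside the GENCODE gene spans given below, since GENCODE starts those genes further upstream, and 15 bases of the Sirt1 window are annotated exon.
Nadsyn1: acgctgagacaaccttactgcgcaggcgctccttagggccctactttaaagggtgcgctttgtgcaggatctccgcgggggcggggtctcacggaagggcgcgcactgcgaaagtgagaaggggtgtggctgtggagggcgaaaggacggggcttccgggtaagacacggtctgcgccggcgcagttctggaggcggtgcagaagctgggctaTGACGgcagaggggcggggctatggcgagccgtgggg
Nampt: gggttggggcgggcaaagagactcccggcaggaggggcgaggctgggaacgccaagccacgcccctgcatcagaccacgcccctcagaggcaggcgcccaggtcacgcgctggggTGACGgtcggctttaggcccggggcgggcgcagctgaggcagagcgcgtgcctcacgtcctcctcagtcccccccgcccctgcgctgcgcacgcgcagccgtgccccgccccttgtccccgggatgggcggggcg
Sirt1: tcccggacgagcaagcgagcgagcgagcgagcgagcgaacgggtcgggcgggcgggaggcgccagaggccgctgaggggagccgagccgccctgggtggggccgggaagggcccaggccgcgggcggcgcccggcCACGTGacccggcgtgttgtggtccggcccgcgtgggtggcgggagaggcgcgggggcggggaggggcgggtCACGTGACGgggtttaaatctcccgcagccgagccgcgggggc
The Sirt1 window holds 2 E-boxes, starting 115 and 43 bases before the gene's start, and the second shares letters with a half-site. Among 32851 windows of the same length 6.02% hold an E-box. The half-site was in a window of 5 of the 8 genes (Nadsyn1, Nampt, Sirt1, Sirt3 and Aox3) and in 17.8% of all windows. Members are counted here per gene and the share is per window. The 8 genes have 10 windows, since Nmnat1 and Sirt3 have a second one. The Sirt3 window that lies wholly in annotated exon holds no half-site. The half-site starts 37 bases before the start of Nadsyn1 and 135 bases before that of Nampt. The FoxO motif GTAAACA was in 0 of the 8 and in 3.17% of all windows. A match is a run of letters and not a measured binding site.

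Of the 10 genes Nnmt moved most. It encodes nicotinamide N-methyltransferase, which uses S-adenosylmethionine to methylate nicotinamide and so takes it out of salvage (ENSMUSG00000032271.13, chromosome 9, 48591877 to 48605153, minus strand). Nnmt had 617, 978 and 1232 CPM in KO 1 to 3 and 40.4, 31.7 and 33.8 CPM in WT 1 to 3. The lowest KO library was thus far above the highest WT library, and libraries with Xist and with Y-linked counts showed the same direction. The means were 942 ± 309 CPM in KO and 35.3 ± 4.55 CPM in WT (SD, n = 3), and the log2 fold change was 4.74 ± 0.321 (SE, adjusted p = 0.00357).

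By p-value Nnmt ranked 7 of 14539 genes, and by log2 fold change 56. By CPM, which favours long transcripts, it went from rank 3474 in WT to rank 134 in KO. The log2 fold change was 5.07 ± 0.221 in the Y-linked set (adjusted p = 0.000328), and the log2 ratio was 3.93 in the Xist pair. The difference between these values had an adjusted p of 0.141 in edgeR's test of the interaction. Leaving out WT 2 gave an adjusted p of 0.0525 for Nnmt with a log2 fold change of 4.66, in a fit where 6 of 14980 genes passed (0.0401%).

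Fibroblast-like cells and adipocytes also express Nnmt, so markers of other cell types were read beside it. The summed level of 8 stellate cell markers was 120 to 278 CPM in KO and 208 to 457 CPM in WT. The 4 adipocyte markers summed to 0 CPM in every KO library and at most 0.27 CPM in WT, with Lep at 0 throughout. Over the marker lists of 7 cell types other than hepatocytes, edgeR passed 0 of 41 genes tested, with 8 at an unadjusted p under 0.05 (26.3% of all genes), while limma voom passed 0 and DESeq2 4 (15.8% of all genes). Of those 8 genes 7 were endothelial, as were all 4 in DESeq2, and all 8 endothelial estimates were lower in KO. Endothelial markers summed to 101 to 161 CPM in KO and 191 to 263 CPM in WT, macrophage markers to 105 to 233 and 144 to 198, bile duct markers to 25.0 to 74.9 and 39.6 to 73.1, lymphocyte markers to 4.73 to 10.7 and 7.27 to 11.1, and red blood cell markers to 32.9 to 177 and 109 to 301. For the liver label, 9 hepatocyte markers summed to 31034 to 76808 CPM in KO and to 79814 to 120349 CPM in WT, a sum carried by Alb, the gene of serum albumin (means of 26160 and 74222 CPM, adjusted p = 0.190 in edgeR). Within that list 5 of 9 estimates were higher in KO, and the only marker that passed in edgeR was Ass1, a urea cycle enzyme, which was higher (9098 and 2413 CPM, adjusted p = 0.0325). The 2 that limma voom passed (2.97% of all genes) were Ass1 and Apoa1. Apoa1 was lower in KO (1571 and 6613 CPM, adjusted p = 0.0568 in edgeR). Of the 5 that DESeq2 passed (15.8% of all genes), Alb, Ttr and Apoa1 were lower and Ass1 and Cps1 higher. The part of cell composition in the Nnmt result was not tested.

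Aox3 stands downstream of Nnmt. It encodes an aldehyde oxidase that converts N-methylnicotinamide to pyridones, and in the mouse it is a main liver form of that enzyme (ENSMUSG00000064294.12, chromosome 1, 58113130 to 58200698, plus strand). Aox3 had 312, 103 and 146 CPM in KO 1 to 3 and 349, 1332 and 1354 CPM in WT 1 to 3. All KO libraries lay below all WT libraries, but WT 1 and KO 1 were close to each other and WT 2 and 3 stood well above the rest. Over the 6 libraries the log2 fold change was -2.43 ± 0.628 (SE), which did not pass the threshold in edgeR (adjusted p = 0.0765). Over the same libraries Aox3 passed in DESeq2 (adjusted p = 0.000138) and in edgeR without the filter on low counts (adjusted p = 0.0488). Of 13 alternative settings it passed in 4.

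In the Y-linked set Aox3 fell by 3.44 on the log2 scale (SE 0.242, adjusted p = 0.000875). In the Xist pair the log2 ratio was -0.16. The test of that difference gave an interaction of 3.27 ± 0.390 on the log2 scale (SE, Xist pair minus Y-linked libraries, adjusted p = 0.0199), for which 2.90% of all genes passed. The interaction rests on the spread of the Y-linked set, since KO 1 and WT 1 are single. Elovl3 and Hsd3b5, known as male-biased liver genes and chosen after their values were seen, were split among the libraries as well. For Elovl3, WT 2 and WT 3 reached 713 and 814 CPM, against 2.03 in WT 1 and no more than 2.74 in any KO library. For Hsd3b5 the same pair reached 283 and 278 CPM, against no more than 1.10 elsewhere. Mup20, read beside them, was split less cleanly. It had 7204 and 8400 CPM in WT 2 and WT 3, 92.7 in WT 1, and 627, 618 and 433 in KO 1 to 3. Cyp2a4, read beside them too, had at most 0.214 CPM in WT 2 and WT 3. It had 432 CPM in WT 1 and 462, 199 and 123 in KO 1 to 3. The part that sex-biased expression has in the Aox3 result was not tested.

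**Figure D2:**
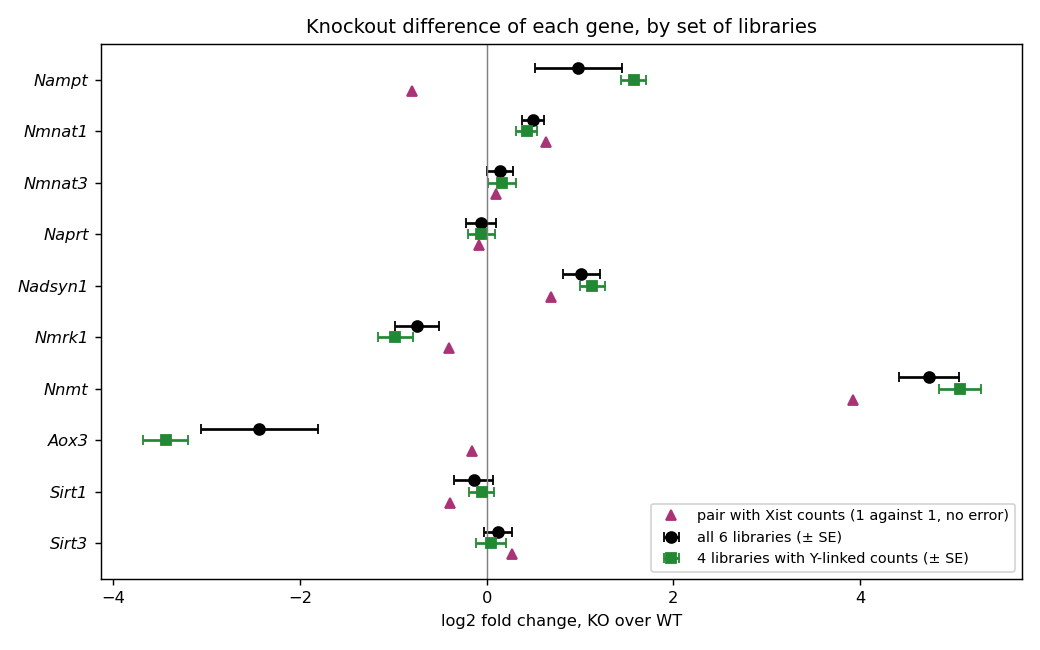
Log2 fold change of KO over WT for each gene in all 6 libraries (black circles, ± SE), in the Y-linked set (4 libraries, green squares, ± SE) and in the Xist pair (purple triangles, 1 library against 1, no error). Nnmt lies above 3.9 in each set, whereas Aox3 (-3.44 and -0.16) and Nampt (1.58 and -0.80) differ between the sets.

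Nampt was the salvage gene with the widest spread. It encodes nicotinamide phosphoribosyltransferase, the rate-limiting step that joins nicotinamide to phosphoribose (ENSMUSG00000020572.8, chromosome 12, 32819545 to 32853349, plus strand). Nampt had 35.3, 135 and 119 CPM in KO 1 to 3 and 61.4, 45.1 and 39.8 CPM in WT 1 to 3. KO 1 was the lowest of all 6 libraries, and KO 2 and 3 were the highest, so the groups overlapped. The log2 fold change was 0.98 ± 0.467 (SE) and did not pass the threshold (adjusted p = 0.234).

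Without KO 1 the log2 fold change of Nampt was 1.37 (adjusted p = 0.00609), and in the Y-linked set it was 1.58 ± 0.130 (SE, adjusted p = 0.00135). The Xist pair went the other way, with a log2 ratio of -0.80. The interaction was -2.38 ± 0.223 (SE, Xist pair minus Y-linked libraries, adjusted p = 0.0109). Nampt is a known target of the circadian clock, so 15 clock genes were read beside it. Of 14 tested, edgeR passed 2, both higher in KO (3.37% of all genes passed, 2.15% higher), limma voom 2 (2.97% of all genes) and DESeq2 4 (15.8%). Arntl, an activator of the clock, had means of 40.7 ± 6.75 CPM in KO and 18.5 ± 3.55 CPM in WT (SD, n = 3), with an adjusted p of 0.0334 in edgeR. Nfil3, a repressor, had 63.9 ± 2.89 and 32.3 ± 7.55 CPM (SD, n = 3), with an adjusted p of 0.0417 in edgeR. The median log2 fold change of the 14 was -0.04. Set by set the clock genes went different ways, and the genes named next were chosen after their values were seen. Arntl had a log2 ratio of 1.12 in the Y-linked set and 1.16 in the Xist pair. Like Nampt, Per2 (0.26 and -0.75), Nr1d2 (0.19 and -0.27) and Cry2 (0.19 and -0.13) had a positive ratio in the Y-linked set and a negative one in the Xist pair, as had Ciart (3.00 and -0.61), which was below the filter at no more than 2.34 CPM. Per1 (2.18 and 0.48), Cry1 (0.82 and 0.50) and Nfil3 (0.84 and 1.31) were higher in KO in both. Clock (-0.55 and -0.08), Nr1d1 (-1.07 and -0.77) and Per3 (-0.30 and -1.98) were lower in KO in both. So were Dbp (-0.96 and -1.38), Tef (-0.74 and -0.77) and Bhlhe41 (-1.37 and -0.30). Npas2 (-0.03 and 0.69) went the opposite way to Nampt. In edgeR's interaction test 0 of the 14 passed (2.90% of all genes). The lowest adjusted p-values there were 0.105 for Per1, 0.138 for Per2 and 0.184 for Per3. The part of the clock in the Nampt values was not tested.

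The next step turns nicotinamide mononucleotide into NAD and is carried out by the adenylyl transferases Nmnat1, in the nucleus, and Nmnat3, in mitochondria. Nmnat1 (ENSMUSG00000028992.13, chromosome 4, 149467572 to 149485202, minus strand) had 18.6, 17.6 and 18.8 CPM in KO 1 to 3 and 12.0, 14.0 and 13.0 CPM in WT 1 to 3. The KO libraries were tightly grouped above the WT libraries. Its log2 fold change of 0.50 ± 0.116 (SE) lay just outside the threshold in edgeR (adjusted p = 0.0641) and passed in the Y-linked set (0.43, adjusted p = 0.0345). Over all 6 libraries Nmnat1 passed in DESeq2 (adjusted p = 0.0165) and in edgeR with Xist state as a covariate (adjusted p = 0.0434). Of 13 alternative settings it passed in 4. The Nmnat1 counts were not whole numbers in any library, which RSEM gives where reads also match other genes, so its level is uncertain.

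Nmnat3 (ENSMUSG00000032456.13, chromosome 9, 98287435 to 98420438, plus strand) was low, at 6.67, 6.55 and 7.34 CPM in KO 1 to 3 and 6.21, 6.36 and 5.99 CPM in WT 1 to 3. The groups did not overlap, but the gap was small. The log2 fold change was 0.15 ± 0.139 (SE, adjusted p = 0.529). Across all 13 alternative settings it ran from 0.10 to 0.19 and passed the threshold in 0.

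Nicotinic acid enters through Naprt, the nicotinate phosphoribosyltransferase, and that branch ends at Nadsyn1, the NAD synthetase that amidates the acid form with glutamine and also closes synthesis from tryptophan. Nadsyn1 (ENSMUSG00000031090.14, chromosome 7, 143795584 to 143822849, minus strand) had 28.8, 48.8 and 39.4 CPM in KO 1 to 3 and 17.8, 20.7 and 19.4 CPM in WT 1 to 3. Each KO library was above each WT library, and KO 1 was again the lowest of its group. The log2 fold change was 1.02 ± 0.200 (SE, adjusted p = 0.047). This call was near the threshold: it was lost in limma voom (adjusted p = 0.0535) and when any library but KO 1 was left out (adjusted p 0.0997 to 0.207), with log2 fold changes of 0.83 to 1.19 throughout.

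Naprt, the entry enzyme, overlapped between groups. It lies on chromosome 15 (ENSMUSG00000022574.7, 75890956 to 75894481, minus strand) and had 89.1, 67.2 and 84.6 CPM in KO 1 to 3 and 94.1, 77.4 and 79.7 CPM in WT 1 to 3. For Naprt the log2 fold change was -0.06 ± 0.156 (SE, adjusted p = 0.834). Its direction turned when KO 2 or WT 1 was left out (log2 fold changes of 0.06 and 0.03). Exons of Naprt overlap those of Eef1d on the same strand, which had 60.6 to 81.3 CPM, and its counts were not whole in any library, so the Naprt level is uncertain.

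Nmrk1 encodes the kinase that brings nicotinamide riboside into the pathway (ENSMUSG00000037847.14, chromosome 19, 18631950 to 18652428, plus strand), and it was the only one of the 6 salvage genes whose KO libraries all lay below the WT libraries. Nmrk1 had 10.9, 6.03 and 7.49 CPM in KO 1 to 3 and 14.4, 11.6 and 14.9 CPM in WT 1 to 3. The groups did not overlap, although KO 1 came close to WT 2. The log2 fold change was -0.74 ± 0.238 (SE, adjusted p = 0.114 in edgeR), and it was -0.98 in the Y-linked set (adjusted p = 0.0142). Over all 6 libraries Nmrk1 passed in DESeq2 (adjusted p = 0.0400). Of 13 alternative settings it passed in 3.

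The sirtuin transcripts overlapped between groups. Sirt1 encodes a nuclear NAD-dependent deacetylase and lies on chromosome 10 (ENSMUSG00000020063.16, 63319005 to 63381704, minus strand), 16.7 Mb from Stk11. It had 7.72, 11.4 and 12.4 CPM in KO 1 to 3 and 10.1, 13.3 and 11.3 CPM in WT 1 to 3. Sirt3 encodes the main mitochondrial deacetylase of the family (ENSMUSG00000025486.17, chromosome 7, 140863666 to 140882309, minus strand). It had 71.7, 64.0 and 79.3 CPM in KO 1 to 3 and 59.4, 75.6 and 62.2 CPM in WT 1 to 3. Log2 fold changes were -0.14 ± 0.212 (SE, adjusted p = 0.705) for Sirt1 and 0.12 ± 0.148 (SE, adjusted p = 0.618) for Sirt3. For both genes 0 of the alternative settings passed the threshold, and edgeR gave 0 unadjusted p-values under 0.05. The Sirt1 estimate turned to 0.03 without KO 1. Sirt3 shares exon sequence with Ric8a and Psmd13 on the opposite strand, and the use of strand in counting is not given in the sources used here.

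Levels can be set side by side only per length, so CPM were divided by kilobases of annotated exon. In WT the order by mean was Aox3 (144 CPM per kb), Naprt (35.7), Nnmt (22.4), Sirt3 (11.0), Nampt (9.65), Nadsyn1 (5.83), Nmnat1 (4.28), Nmrk1 (3.69), Sirt1 (2.2) and Nmnat3 (1.24). Ranges over libraries overlapped for the neighbours Sirt3 and Nampt and for Nmnat1 and Nmrk1, and were separate for the other neighbours. In KO the order opened with Nnmt (598 CPM per kb), which was separate from all others, followed by Naprt (34.3), Aox3 (26.6), Nampt (19.1), Sirt3 (12.0) and Nadsyn1 (11.8), and from Naprt to Nadsyn1 each overlapped the next. Nmnat1 (6.05) was separate from both its neighbours. Nmrk1 (2.20), Sirt1 (1.97) and Nmnat3 (1.37) closed the order, again with each overlapping the next.

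**Figure D3:**
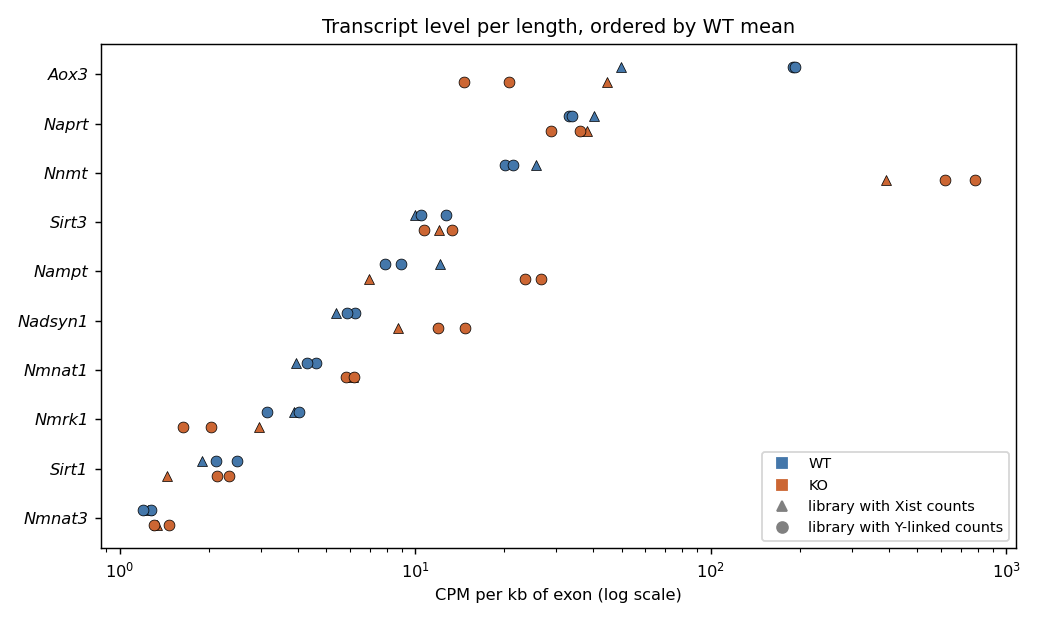
CPM per kilobase of exon (log scale) in each library, with genes ordered by their WT mean, WT in blue and KO in orange, triangles for libraries with Xist counts and circles for those with Y-linked counts. Nnmt moves from 20.1 to 25.6 CPM per kb in WT to 391 to 782 in KO, while Naprt, Sirt1 and Sirt3 overlap.

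Other genes of NAD metabolism were taken from 6 lists with 51 genes, of which 46 were tested. Of these 3 passed, all higher in KO (2.15% of all genes passed and were higher): Acmsd, Sirt5 and Slc25a51. The median log2 fold change of the 46 was 0.24. In the Y-linked set 20 of the 46 passed, 16 higher and 4 lower, beside 17.2% and 16.1% of all genes.

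Acmsd had the widest change of these. It encodes the decarboxylase that diverts an intermediate of tryptophan breakdown away from quinolinate and thus away from NAD. Acmsd had 111, 317 and 421 CPM in KO 1 to 3 and 13.5, 15.6 and 19.6 CPM in WT 1 to 3. All KO libraries were above all WT libraries, and the log2 fold change was 4.12 ± 0.507 (SE, adjusted p = 0.0175). Of the 8 genes of synthesis from tryptophan it alone passed in edgeR and in limma voom, whereas DESeq2 passed 5 (15.8% of all genes) and the Y-linked set 5 (33.3% of all genes). Kynu, which makes 3-hydroxyanthranilate, and Qprt, which uses quinolinate, had log2 fold changes of 1.21 (adjusted p = 0.0541) and 0.67 (adjusted p = 0.0788), with no overlap between groups for either. Ido2, of the same list, was lower in KO (log2 fold change -1.26, adjusted p = 0.109 in edgeR), also with no overlap. DESeq2 passed Ido2 as well, and of the 5 in the Y-linked set 4 were higher and 1, Ido2, was lower.

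Among 5 other sirtuins Sirt5 passed. It encodes the mitochondrial sirtuin that removes succinyl, malonyl and glutaryl groups from lysine. Sirt5 had 29.6, 36.4 and 32.6 CPM in KO 1 to 3 and 9.82, 12.4 and 12.6 CPM in WT 1 to 3. Every KO library was more than 2-fold above the WT libraries of either kind, and the log2 ratio was 1.58 in the Xist pair. Over all libraries Sirt5 rose by 1.50 ± 0.149 on the log2 scale (SE, adjusted p = 0.00942). Sirt2, a cytosolic deacetylase, was at 53.4 ± 5.43 and 40.2 ± 0.797 CPM in KO and WT (SD, n = 3, adjusted p = 0.0947).

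Slc25a51, the carrier that takes NAD into mitochondria, was the third. It had 152, 118 and 137 CPM in KO 1 to 3 and 48.1, 63.5 and 65.4 CPM in WT 1 to 3, with no overlap. For Slc25a51 the log2 fold change was 1.20 ± 0.175 (SE, adjusted p = 0.0258). In the same list Nadk, the cytosolic NAD kinase, was at 0.76 (adjusted p = 0.0866) and the hydrolase gene Nudt13 at 0.66 (adjusted p = 0.0826). When single libraries were left out in turn, the adjusted p reached 0.125 for Acmsd, 0.0815 for Sirt5 and 0.150 for Slc25a51. The call of Acmsd was lost without KO 2, KO 3, WT 2 or WT 3, that of Sirt5 without KO 3, WT 2 or WT 3, and that of Slc25a51 without any library but KO 1.

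**Figure D4:**
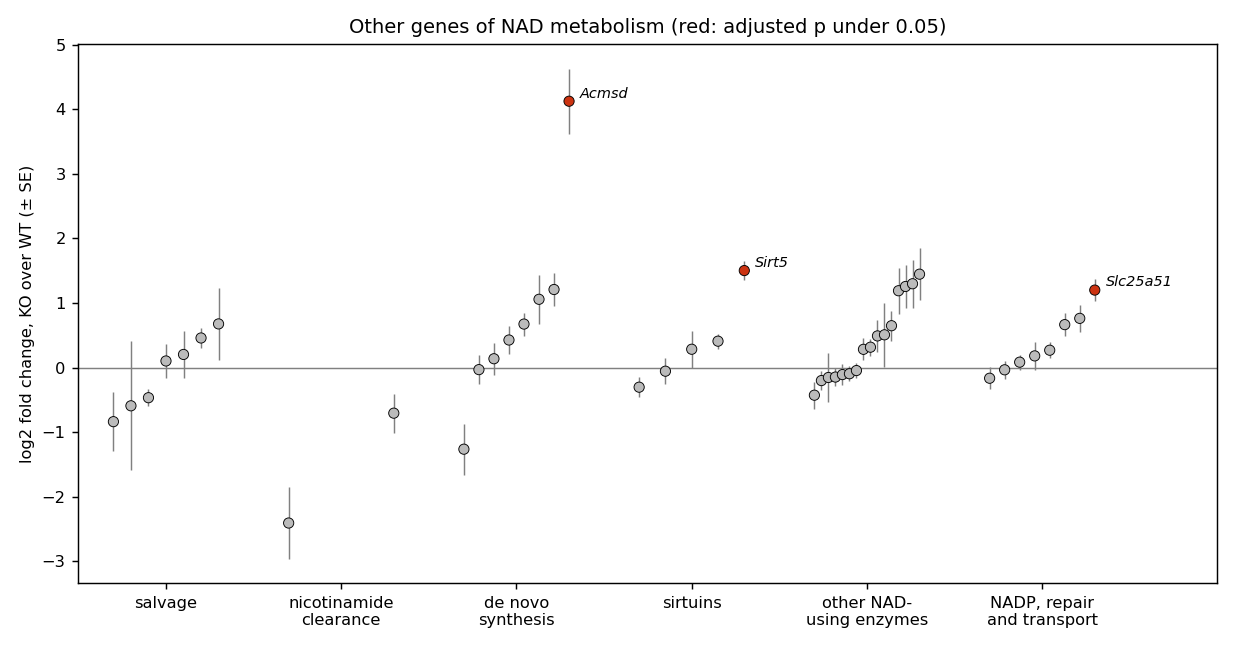
Log2 fold change of KO over WT (± SE) for 46 other genes of NAD metabolism in 6 lists, each point 1 gene. Red points passed an adjusted p of 0.05: Acmsd at 4.12, Sirt5 at 1.50 and Slc25a51 at 1.20.

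Of the other NAD-using enzymes, which are the poly- and mono-ADP-ribosyltransferases and the NAD hydrolases, edgeR passed 0 of 16 over the 6 libraries (3.37% of all genes), with 6 at an unadjusted p under 0.05 (26.3% of all genes), while limma voom passed 0 and DESeq2 4 (15.8% of all genes). The 2 with the lowest adjusted p were Parp10 (log2 fold change 1.26 ± 0.326 (SE), adjusted p = 0.0769) and Parp12 (1.45 ± 0.404, adjusted p = 0.0889), both mono-ADP-ribosyltransferases known to be induced by interferon. The Parp12 libraries stood at 40.9, 139 and 109 CPM in KO 1 to 3 and 36.1, 35.0 and 34.9 CPM in WT 1 to 3. KO 2 and 3 were high and KO 1 was close to WT (interaction -1.64 ± 0.253 (SE), adjusted p = 0.0367). In edgeR's interaction test 3 of the 16 genes passed, Parp12 among them, beside 2.90% of all genes.

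In the salvage list 0 of 7 tested genes passed in edgeR, with 2 at an unadjusted p under 0.05, while limma voom passed 0 and DESeq2 1, beside the same shares of all genes. Pnp, which frees nicotinamide from its riboside, was closest at -0.47 (adjusted p = 0.0892), followed by the nucleotidase gene Nt5c2 at 0.46 (adjusted p = 0.126). Of the other genes of nicotinamide oxidation, Aox1, a paralogue of Aox3, had 78.8, 72.1 and 73.5 CPM in KO 1 to 3 and 67.2, 141 and 158 CPM in WT 1 to 3. WT 1 was thus the lowest library, and WT 2 and 3 the highest, and Aox1 had an interaction with an adjusted p of 0.0443 in edgeR. Its log2 fold change was -0.71 (adjusted p = 0.196). Cyp2e1, a cytochrome P450 that can oxidise nicotinamide, was lower in every KO library (log2 fold change -2.41 ± 0.555 (SE), adjusted p = 0.064).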

How the data were processed

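The authors deposited 1 table of expected counts, estimated reads per gene and not normalised, for 55450 genes in 6 poly(A) RNA libraries, 1 per mouse. The submitters' processing notes name bcl2fastq 2.17, cutadapt 1.18, STAR 2.7.0f and RSEM 1.3.1, and the build mm9. All 55450 versioned gene identifiers of the file were found in GENCODE M21 (GRCm38), so gene positions and exon lengths come from that annotation. The use of strand is not given in the sources used here.

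Expected counts were rounded, genes were kept by filterByExpr of edgeR 4.0.16 (14539 genes), libraries were scaled by TMM, and KO was compared with WT by edgeR's quasi-likelihood test in R 4.3.3 with the group as the only term. The Benjamini-Hochberg adjustment of p-values ran over every tested gene, with a threshold of 0.05. The SE is the log2 fold change divided by the square root of F. CPM use TMM-scaled library sizes, and ratios within library subsets add 0.1 CPM. The interaction test adds the Xist state of the library. Tests were checked on simulated counts. Alternatives were DESeq2 1.42.0, limma voom 3.58.1, library-size scaling, no filter, the replicate number or Xist state as a term, and fewer libraries.

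By rule, named genes were all 10 members, Stk11, from each list those past the threshold or, where a list had none, at most the 2 with the lowest adjusted p, and the 5 genes whose log2 CPM was most like that of Nampt and of Nnmt. Outside that rule, Kynu, Qprt, Ido2, Sirt2, Nadk, Nudt13, Elovl3, Hsd3b5, Mup20 and Cyp2a4 were chosen after their values were seen. So were the marker genes Alb, Apoa1, Ttr, Ass1, Cps1 and Lep, and the clock genes other than Arntl and Nfil3. The members and lists were chosen with earlier results of these data known. Groups were taken from sample titles. At these depths, the members had at least 280 counts in every library.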

Additional observations from a re-analysis of the deposited data

Results flagged for a closer look

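For 2 of the 10 genes the KO difference itself differed between the Xist pair and the Y-linked set of 4 libraries, by the interaction term in edgeR. Among all genes tested 2.90% passed that test. For Nampt the log2 difference was -0.80 in the pair and 1.58 in the other libraries, with an adjusted p of 0.0109. For Aox3 it was -0.16 in the pair and -3.44 in the other libraries, with an adjusted p of 0.0199. Both tests compare a single KO and a single WT library with the rest and assume that these vary like the other 4. Since the 2 kinds of library were told apart from the data and not from labels, they are not groups of the study.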

How the results depend on the processing

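Of the 10 genes, 2 passed the threshold in the reported comparison, 5 in DESeq2, 1 in limma voom, 1 with the replicate block, 6 in the Y-linked set of 4 libraries, and 0 to 6 when single libraries were left out. Over all genes 490 passed, against 2290 in DESeq2, 771 without the filter, 105 with the replicate block, 1504 with Xist state as a covariate, 4847 in the Y-linked set, and 6 (without WT 2) to 4473 (without KO 1) when single libraries were left out. Of the 46 other NAD genes 3 passed, against 15 in DESeq2, 5 without the filter, 7 with the covariate, 20 in the Y-linked set and 0 to 17 with single libraries left out. The cause of these shifts was not tested. Nnmt kept its direction under all 13 alternatives (log2 fold change 4.50 to 5.07) and passed in 12, and Nadsyn1 passed in 6. The direction turned for Naprt without KO 2 (0.0599) and without WT 1 (0.03), with a range of -0.15 to 0.0599 over single libraries left out, and for Sirt1 without KO 1 (0.0341), with a range of -0.28 to 0.0341. For the replicate block, deviations of same-numbered libraries correlated at 0.178, 0.0443 and 0.0679, and not every library correlated best with its own number, so the numbers were not taken as pairs. With the block Nnmt had an adjusted p of 0.0221, Nadsyn1 of 0.0663 and Slc25a51 of 0.0738, so the last 2 lost their calls and 2 of the 46 other NAD genes passed. With 3 mice a group, no group is large enough to test single libraries as outliers.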

Other observations

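The balance of the Nnmt and Aox3 transcripts can be read within each library, leaving out the paralogue Aox1. Per kilobase, Nnmt stood at 8.81, 42.4 and 37.7 times Aox3 in KO 1 to 3 and at 0.517, 0.106 and 0.112 times Aox3 in WT 1 to 3. Nnmt was thus the more abundant transcript in every KO library and Aox3 in every WT library. Nnmt stood at 23.3 to 55.98 times Nampt in KO and at 2.11 to 2.73 times Nampt in WT. For the branch point of synthesis from tryptophan, Acmsd stood at 0.452 to 1.45 times Qprt in KO and at 0.0844 to 0.109 times Qprt in WT. These are ratios of transcripts and not of enzyme activity or metabolites. Of the KO libraries, KO 1 had the lowest Nnmt to Aox3 and Acmsd to Qprt ratio and the highest Nnmt to Nampt ratio.

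Likeness of pattern was measured by Pearson's r of log2 CPM over the 6 libraries, among 7495 other genes with a mean of at least 10 CPM. The genes most like Nnmt were Timm50, Caprin1, Sept11, Gls2 and Cisd3, with r from 0.996 to 0.999. Gls2, the liver glutaminase, had 1133, 1374 and 1830 CPM in KO 1 to 3 and 314 to 364 CPM in WT. The genes most like Nampt were Bzw1, Med7, Wdr1, Uspl1 and Zfp36, with r from 0.994 to 0.996. For all 5 KO 1 lay below WT 1 and below KO 2 and 3, as for Nampt. That order follows from picking them by likeness to Nampt over the same libraries. Over 6 libraries, 257 of the 7495 genes had an r above 0.95 with Nnmt and 150 with Nampt, so an r that high is not particular to the genes named. Among the 10 genes themselves r ran from -0.97 for Nadsyn1 with Nmrk1 to 0.94 for Nmnat1 with Nnmt.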
